A study of Mus musculus with 8 samples.

Results

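Among the genes that carry zinc and manganese through the colon wall, the manganese exporter gene *Slc30a10* had 2 and 0 counts in the colons of treated WT mice and 116 and 8 in those of treated *Hsf1* null mice, and the zinc-storing metallothionein genes *Mt1* and *Mt2* rose with treatment in WT mice. *Mt1* was also higher in both treated than in both untreated *Hsf1* null mice, a difference that did not pass edgeR's test. The 9 genes described here are *Slc30a10* and *Slc30a1*, which encode exporters, *Slc39a4*, *Slc39a5*, *Slc39a8* and *Slc39a14*, which encode importers, the metallothioneins *Mt1* and *Mt2*, and *Mtf1*, which encodes the zinc-sensing transcription factor that switches metallothionein genes on. They were chosen by symbol and are 9 of the 15859 genes in the count table, and all 9 passed the filter on low counts (a mean normalized count above 5). The group was put forward with one outcome of these data known, the low *Slc30a10* of treated WT mice beside treated *Hsf1* null mice. For that reason *Slc30a10* is given by its values in every comparison, and the comparison of the genotypes after treatment is given without a test for all 9 genes. The comparisons share mice, so the treated WT mice enter both the comparison with untreated WT mice and that with treated *Hsf1* null mice.

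RNA of the distal colon was sequenced from 8 male mice, 2 in each of 4 groups, to follow how the loss of heat shock factor 1 (HSF1) changes the colon before tumors form. All mice were of the BALB/c x 129SvEV strain. The WT mice carried intact *Hsf1*, and the *Hsf1* null mice lacked it in the whole body, so no cell type can be singled out as the one in which the loss acts. The day 15 mice of both genotypes received 10 mg/kg of the mutagen azoxymethane (AOM) by intraperitoneal injection at 8 weeks of age, and from day 7 drank water with 1.5% dextran sulfate sodium (DSS) for 5 days, an agent that damages the lining of the colon. The day 0 mice received neither agent and are called untreated, and the labels give the age of every mouse as 10 weeks. The protocol in the labels ends with the DSS, whereas the sample titles name day 15, and day 15 is used here for these treated mice.

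Cells hold free zinc and manganese at low levels by balancing import, export and storage. Proteins of the SLC30 family move metal out of the cytosol, those of the SLC39 family move it in, and metallothioneins bind zinc and copper through their many cysteines. In the gut epithelium SLC39A4 takes up zinc from the lumen, SLC39A5 works at the opposite face of the cell, and SLC30A10, in spite of its family, exports manganese. MTF1 enters the nucleus when zinc rises and binds metal response elements in the promoters of *Mt1*, *Mt2* and *Slc30a1*. HSF1 is the factor that turns on chaperone genes under heat and other stress.

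Total counts ranged from 2553348 to 12440257 per library, and the smallest libraries were mouse 2 of WT day 0 and mouse 2 of *Hsf1* null day 0. Levels are CPM, the reads of a gene scaled to a common library size after TMM normalization. *Hsf1* itself was at 40.5 and 36.5 CPM in untreated WT mice and at 50.5 and 45.9 CPM at day 15. In the *Hsf1* null mice it was at 14.0 and 11.9 CPM at day 0 and at 13.5 and 9.09 CPM at day 15, lower in every *Hsf1* null mouse than in every WT mouse. All 11 colon epithelium markers were detected in every mouse, as were the distal colon markers *Hoxb13*, *Hoxd13* and *Cdx2*, while the small intestine markers summed to no more than 18.5 CPM. The tissue is bulk colon, in which fewer cells of a type and less RNA per cell cannot be told apart. Nothing in the labels says whether mice shared a cage or a litter, and p-values measure the spread between these mice.

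The promoter windows of the metallothioneins and of *Slc30a10* are shown because these genes had the widest differences between groups, and because the letters that MTF1 reads can be seen in them. Each window runs from 250 bases before to 50 bases after the transcript start in RefSeq (GRCm38.p6), and capitals mark the core of the metal response element, TGCACNC or TGCGCNC, on either strand. They lie at chr8:94172368-94172667 for *Mt2*, chr8:94178839-94179138 for *Mt1* and chr1:185454598-185454897 for *Slc30a10*, all on the plus strand.
*Mt2*: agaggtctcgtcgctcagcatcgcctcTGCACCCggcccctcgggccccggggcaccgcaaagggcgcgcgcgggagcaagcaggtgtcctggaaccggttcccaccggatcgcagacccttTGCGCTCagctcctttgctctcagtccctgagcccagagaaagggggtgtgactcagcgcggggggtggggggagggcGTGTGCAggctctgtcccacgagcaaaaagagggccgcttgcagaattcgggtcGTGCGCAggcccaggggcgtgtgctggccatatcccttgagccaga
*Mt1*: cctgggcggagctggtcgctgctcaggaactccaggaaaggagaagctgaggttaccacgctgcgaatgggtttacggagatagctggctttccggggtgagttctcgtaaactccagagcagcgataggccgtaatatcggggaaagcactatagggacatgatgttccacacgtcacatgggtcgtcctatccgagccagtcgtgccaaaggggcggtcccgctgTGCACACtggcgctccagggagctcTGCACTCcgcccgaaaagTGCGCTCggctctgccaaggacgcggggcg
*Slc30a10*: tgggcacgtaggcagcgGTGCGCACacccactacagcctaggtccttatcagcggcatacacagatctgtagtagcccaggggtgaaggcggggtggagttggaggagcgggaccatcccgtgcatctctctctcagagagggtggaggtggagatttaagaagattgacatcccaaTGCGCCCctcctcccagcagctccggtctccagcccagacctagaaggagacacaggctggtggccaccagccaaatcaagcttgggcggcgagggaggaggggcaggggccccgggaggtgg

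The core was found at 4 places in the *Mt2* window and at 3 in the *Mt1* window. The *Slc30a10* window held 3 matches, of which 2 overlap and form one palindromic stretch near its left end. Of the 32851 RefSeq windows of this length, 25.7% held at least 1 match, 1.97% at least 3 and 0.517% at least 4. Windows were matched for 7 of the 9 genes, 9 windows in all, and the other two genes are *Slc39a4* and *Slc39a14*. *Slc30a1* had 2 matches, each gene with a pair of windows (*Slc39a5* and *Slc39a8*) had 1 match in one of them, and *Mtf1* had 0. The palindromic heat shock element GAANNTTC or TTCNNGAA, on either strand, stood in 15.1% of all windows, with at least 2 matches in 1.96%. Among the members, 1 window of *Slc39a8* held 2 matches, 1 window of *Slc39a5* held 1, and the other windows, those of *Mt1*, *Mt2* and *Slc30a10* included, held 0. These are matches of letters only.

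*Slc30a10* (ENSMUSG00000026614, chr1:185454848-185468762, plus strand, GRCm38) had the widest range of the 9 genes. In the WT mice it was at 22.8 and 43.3 CPM at day 0 (233 and 109 counts). At day 15 it was at 0.174 and 0 CPM (2 and 0 counts), and a count of 0 in that library allows up to 0.317 CPM, an upper limit for counting error only. With 3 counts taken for each library as a fixed floor, the day 0 mean in WT mice was 114-fold above the floor of the day 15 mice. The floor is more than was counted, but it is not an upper limit for the library with 2 counts. In the *Hsf1* null mice it was at 10.6 and 14.0 CPM at day 0. At day 15 the *Hsf1* null mice parted, with 18.0 CPM (116 counts) in mouse 1 and 1.07 CPM (8 counts) in mouse 2, which is a 16.8-fold difference between mice of one group. The mean of the *Hsf1* null mice at day 15 was 33.0-fold above the same floor of the treated WT mice. That rests on mouse 1, since mouse 2 alone was 3.70-fold above the floor. The order of the groups was WT day 0, *Hsf1* null day 0, *Hsf1* null day 15, WT day 15. The treated *Hsf1* null mice lay on either side of the untreated ones, so that these neighbours overlap, and the other neighbours in the order do not.

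**Figure D1:**
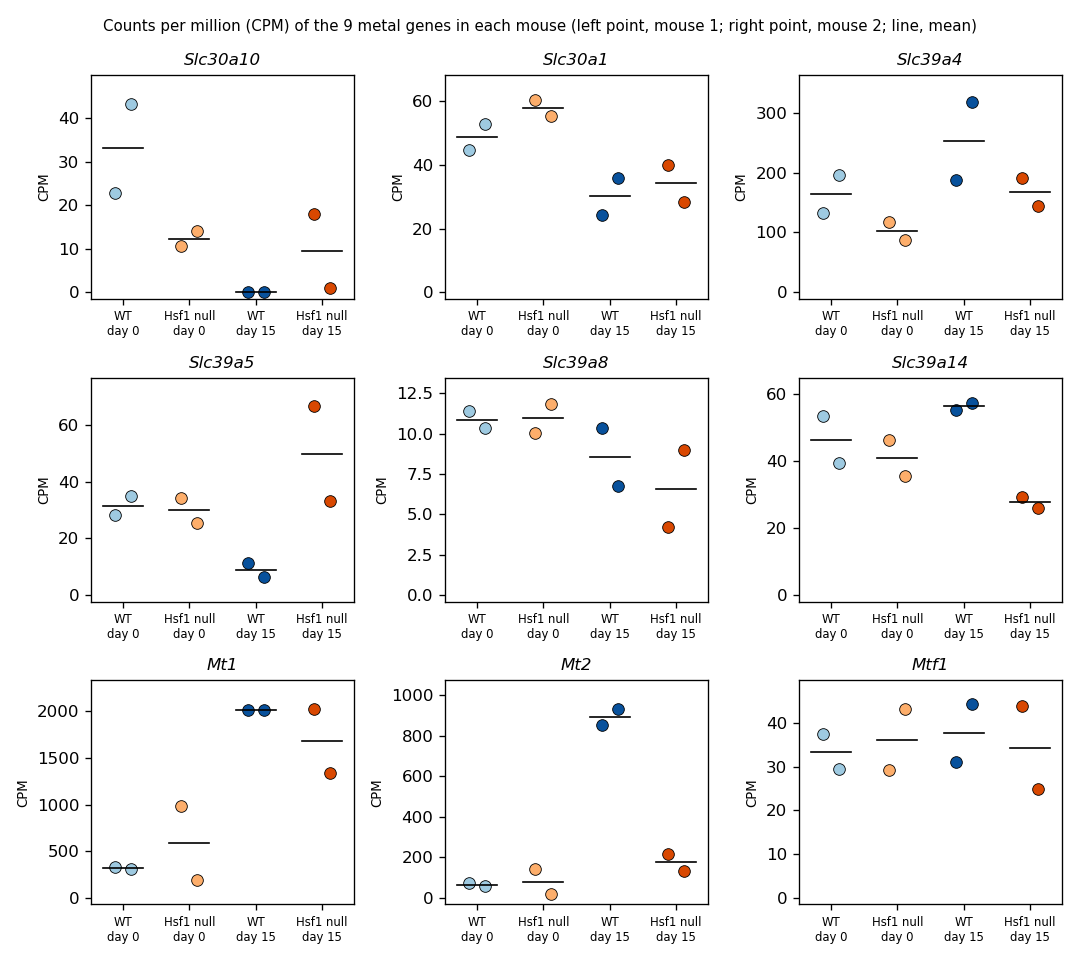
Level of each of the 9 genes in CPM (linear vertical axes from 0, 1 panel per gene) for the 2 mice of the 4 groups on the horizontal axis, with lines at the means. *Slc30a10* lies at 0.174 and 0 CPM in treated WT mice, *Slc39a5* is lowest and *Mt2* highest in those mice, and *Mtf1* overlaps in all groups.

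Epithelial markers were set beside *Slc30a10* in the same mice. The whole epithelium list of 11 markers summed to 12314 and 18404 CPM in untreated WT mice and to 11079 and 14715 CPM at day 15, ranges that overlap. In *Hsf1* null mice the sums were 23325 and 18786 CPM at day 0 and 28638 and 20308 CPM at day 15. Of the 11 markers, 2 passed the test as lower at day 15 in WT mice (4.27% of all tested genes did), *Slc26a3*, the chloride exchanger of surface colonocytes, and *Aqp8*, a water channel. In *Hsf1* null mice 2 passed as lower too (6.48% of all tested genes did), *Slc26a3* and *Car1*, a cytosolic carbonic anhydrase. *Slc26a3* was at 449 and 813 CPM in untreated WT mice and at 46.7 and 55.3 CPM at day 15, while *Hsf1* null mice had 1253 and 1829 CPM and then 231 and 88.4 CPM. Its fall was 12.4-fold in WT mice (edgeR adjusted p = 0.00654) and 9.66-fold in *Hsf1* null mice (edgeR adjusted p = 0.0126). *Aqp8* went from 231 and 314 CPM to 18.6 and 33.4 CPM in WT mice, and was at 642 and 149 CPM in treated *Hsf1* null mice. Carbonic anhydrase 4 (*Car4*), chosen after its values were seen, was at 2868 CPM in *Hsf1* null mouse 1 and 579 CPM in mouse 2 at day 15, against 123 and 325 CPM in WT mice. In *Slc26a3*, *Aqp8* and *Car4* mouse 1 of the treated *Hsf1* null group was above mouse 2, as it was for *Slc30a10*. Those are the widest differences between these mice on the list. *Muc2*, the mucin of goblet cells, was at 10878 and 7245 CPM in them and *Krt8* at 7506 and 6032 CPM, while *Krt18* was lower in mouse 1, at 955 and 1095 CPM. *Krt20*, a keratin of surface colonocytes, was at 951 and 941 CPM in them and at 338 and 371 CPM and then 300 and 806 CPM in WT mice, and *Car1* was at 1046 and 978 CPM in them. At day 15 all 11 epithelium markers were lower in both WT mice than in both *Hsf1* null mice, as were 26.3% of all tested genes, and 1, *Aqp8*, passed the test as lower, as did 1.91% of all tested genes. The part of these cells in the *Slc30a10* values was not tested.

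**Figure D2:**
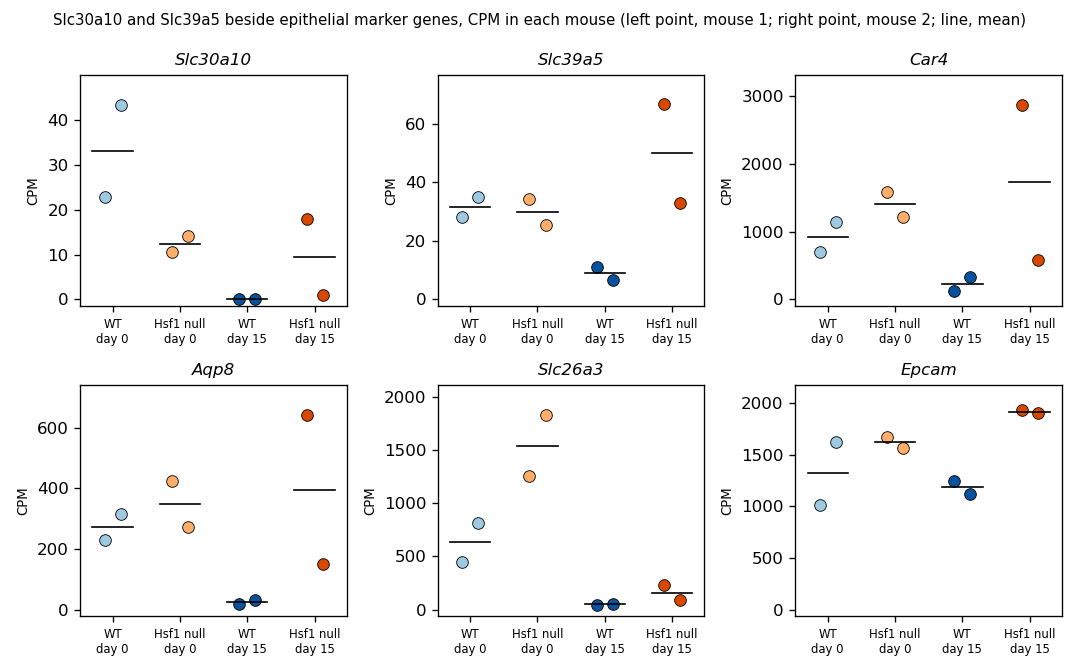
CPM in each mouse for *Slc30a10*, *Slc39a5* and 4 epithelial marker genes (linear vertical axes from 0, groups on the horizontal axis, lines at the means). *Car4* and *Aqp8* part the treated *Hsf1* null mice in the same order as *Slc30a10* (2868 against 579 CPM for *Car4*), while the general epithelial gene *Epcam* was at 1931 and 1899 CPM in those mice.

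*Slc30a1* (ENSMUSG00000037434, chr1:191906767-191913247, plus strand) encodes the zinc exporter of the plasma membrane. It was at 44.7 and 52.8 CPM in untreated WT mice and at 24.4 and 35.9 CPM at day 15. The *Hsf1* null mice had 60.4 and 55.3 CPM at day 0 and 40.0 and 28.5 CPM at day 15. All day 15 mice were below the day 0 mice of their genotype, and neither difference passed the test. Of the 14371 tested genes, 4529 lay lower in this way in WT mice and 4358 in *Hsf1* null mice. The log2 fold change was -0.69 in WT (SE 0.29, edgeR adjusted p = 0.158) and -0.76 in *Hsf1* null mice (SE 0.29, edgeR adjusted p = 0.103).

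Of the importers, *Slc39a5* changed in WT mice and the other three did not pass the test in either genotype. *Slc39a5* (ENSMUSG00000039878, chr10:128395931-128401229, minus strand) was at 28.1 and 34.9 CPM in untreated WT mice and at 11.2 and 6.55 CPM at day 15. That is a fall by 1.81 on the log2 scale (SE 0.41, edgeR adjusted p = 0.0297). Both treated mice lay below both untreated mice, as for 4529 of the 14371 tested genes. In the *Hsf1* null mice it was at 34.3 and 25.5 CPM at day 0 and at 66.7 and 33.0 CPM at day 15, values that overlap (log2 fold change 0.72, SE 0.39, edgeR adjusted p = 0.230). As with *Slc30a10*, mouse 1 of the treated *Hsf1* null group was the higher one.

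*Slc39a4* (ENSMUSG00000063354, chr15:76612383-76617384, minus strand) encodes the luminal zinc importer whose loss causes inherited zinc deficiency in people. It was at 132 and 196 CPM in untreated WT mice and at 187 and 319 CPM at day 15, and at 117 and 87.0 CPM and then 191 and 143 CPM in *Hsf1* null mice. The treated *Hsf1* null mice were both above the untreated ones, as for 4454 of the 14371 tested genes, and the WT mice overlapped. The log2 fold changes of 0.63 in WT (SE 0.33, edgeR adjusted p = 0.241) and 0.71 in *Hsf1* null mice (SE 0.33, edgeR adjusted p = 0.166) did not pass the test. This gene lies 110 kb from *Hsf1* on the same chromosome.

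*Slc39a8* (ENSMUSG00000053897, chr3:135825279-135888572, plus strand) and *Slc39a14* (ENSMUSG00000022094, chr14:70303469-70351425, minus strand) encode the importers that carry both zinc and manganese. *Slc39a8* was the lower one, at 11.4 and 10.3 CPM in untreated WT mice and 10.4 and 6.76 CPM at day 15, and at 10.0 and 11.9 CPM and then 4.19 and 8.96 CPM in *Hsf1* null mice. Its log2 fold changes of -0.35 (SE 0.45, edgeR adjusted p = 0.655) and -0.72 (SE 0.46, edgeR adjusted p = 0.308) did not pass the test. *Slc39a14* was at 53.3 and 39.3 CPM in untreated WT mice and at 55.2 and 57.3 CPM at day 15. The *Hsf1* null mice had 46.3 and 35.6 CPM at day 0 and 29.3 and 26.1 CPM at day 15. *Slc39a14* thus lay higher in both treated WT mice and lower in both treated *Hsf1* null mice than in their untreated counterparts, and 3.61% of all tested genes lay in opposite directions in this way. The log2 fold changes of *Slc39a14*, 0.27 (SE 0.26, edgeR adjusted p = 0.536) and -0.57 (SE 0.27, edgeR adjusted p = 0.165), did not pass the test.

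The metallothioneins had the largest increases of the 9 genes. *Mt1* (ENSMUSG00000031765, chr8:94179082-94180327) and *Mt2* (ENSMUSG00000031762, chr8:94172664-94173568) lie 5.51 kb apart on the plus strand, with *Mt3* and *Mt4* before them. *Mt1* was at 334 and 314 CPM in untreated WT mice and at 2017 and 2016 CPM at day 15. This rise of 2.64 on the log2 scale (SE 0.61, edgeR adjusted p = 0.0319) was 6.22-fold. *Mt2* went from 73.9 and 56.8 CPM to 854 and 930 CPM, a rise of 3.76 (SE 0.72, edgeR adjusted p = 0.0175) or 13.6-fold. For both genes the treated WT mice lay far above the untreated ones and close to each other. Both treated WT mice lay above both untreated ones for 4456 of the 14371 tested genes.

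In the *Hsf1* null mice the untreated animals differed among themselves. *Mt1* was at 979 CPM in mouse 1 and 195 CPM in mouse 2, a 5.01-fold difference, and *Mt2* at 142 and 19.0 CPM, a 7.48-fold difference. At day 15 *Mt1* was at 2026 and 1334 CPM, above both untreated mice, as for 4454 of the 14371 tested genes. *Mt2* was at 217 and 133 CPM, which overlaps the untreated mice. The log2 fold changes were 1.51 for *Mt1* (SE 0.59, edgeR adjusted p = 0.109) and 1.08 for *Mt2* (SE 0.65, edgeR adjusted p = 0.277). These calls turned on mouse 1 of *Hsf1* null day 0. Without it, both genes passed the test, with rises of 3.10 for *Mt1* and 3.20 for *Mt2* (edgeR adjusted p = 0.0146 for each), the lone untreated *Hsf1* null mouse being assumed to vary like the other groups. DESeq2 called *Mt1* with all mice in (log2 fold change 1.53, DESeq2 adjusted p = 0.0142).

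The levels of *Mt1* and *Mt2* were not in a constant proportion. The ratio of *Mt1* to *Mt2* counts was 4.52 and 5.54 in untreated WT mice and 2.36 and 2.17 at day 15. It was 6.87 and 10.3 in untreated *Hsf1* null mice and 9.32 and 10.0 at day 15. The lowest ratios were those of the treated WT mice, and at both days every *Hsf1* null mouse lay above every WT mouse. The coding sequences of the pair match at 145 of 183 bases (79.2%), and their longest identical run is 20 bases, and how reads shared by both were counted is not given in the sources used here. Without a stated strand setting, reads of *Slc30a10*, *Slc30a1*, *Slc39a5* and *Mtf1* cannot be told from those of the opposite-strand genes that overlap them (*Gm2061*, *1700034H15Rik*, *Ankrd52* and *1110065P20Rik*). The same limit holds for *Mt2* and *Slc39a8*, which are overlapped by *Gm45774* and *4933401H06Rik*, genes not in the count table.

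**Figure D3:**
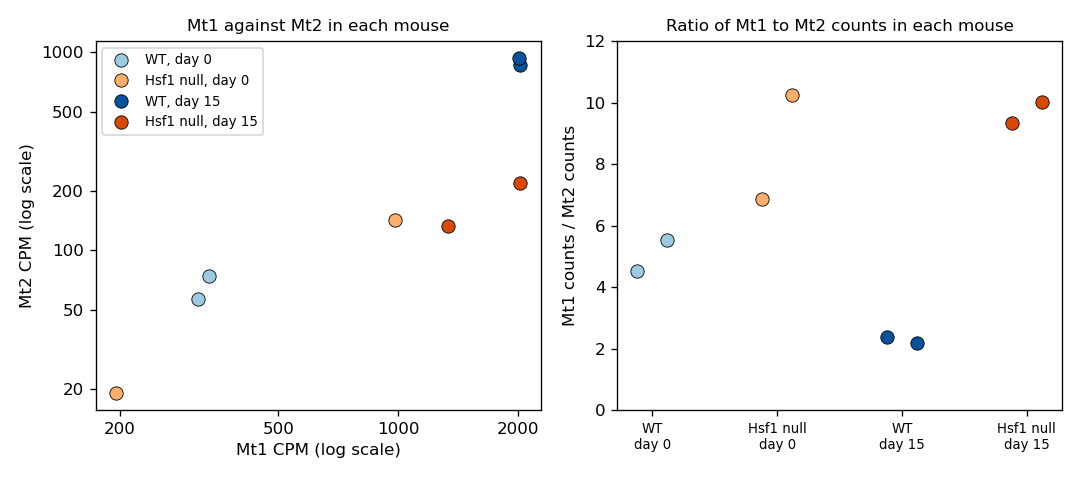
Left, *Mt2* against *Mt1* in CPM for each mouse on log axes. Right, the ratio of *Mt1* to *Mt2* counts in each mouse by group, 2.36 and 2.17 in the treated WT mice and 6.87 to 10.3 in the *Hsf1* null mice.

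*Mtf1* (ENSMUSG00000028890, chr4:124802104-124849800, plus strand) overlapped between all groups. It was at 37.5 and 29.4 CPM in untreated WT mice, 31.1 and 44.3 CPM at day 15, 29.2 and 43.1 CPM in untreated *Hsf1* null mice, and 43.9 and 24.9 CPM at day 15. The log2 fold changes over time were 0.16 in WT (SE 0.35, edgeR adjusted p = 0.801) and -0.06 in *Hsf1* null mice (SE 0.35, edgeR adjusted p = 0.925).

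Of the 8 genes other than *Slc30a10*, 3 passed the test between day 0 and day 15 in WT mice (2 higher, 1 lower), where 7.74% of all 14371 tested genes did, 3.47% higher and 4.27% lower. Their median log2 fold change was 0.21, beside 0.00455 over all tested genes. In the *Hsf1* null mice 0 of the 8 passed edgeR's test, where 11.8% of all genes did, although 2 of the 8, *Slc30a1* and *Mt1*, had an unadjusted p under 0.05 (32.6% of all tested genes) and DESeq2 called 1. The median there was 0.32, beside 0.05 over all tested genes. The WT calls were not kept in every fit without 1 of the WT mice. Such a fit leaves 1 mouse in a group and less to judge the spread from. The fold changes themselves kept their direction in those fits, at 2.61 to 2.68 for *Mt1*, 3.61 to 3.97 for *Mt2* and -2.25 to -1.48 for *Slc39a5*.

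**Figure D4:**
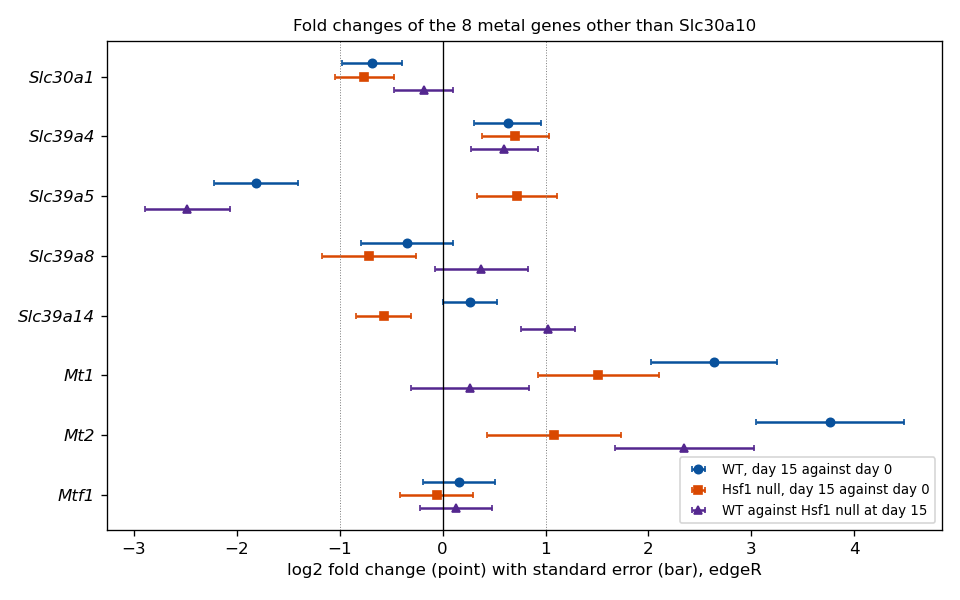
Log2 fold change with its standard error (horizontal axis) for the 8 genes other than *Slc30a10*, over time in WT mice (circles), over time in *Hsf1* null mice (squares) and between genotypes at day 15 (triangles). Dotted lines mark a log2 fold change of -1 and 1. *Mt1* and *Mt2* lie farthest to the right over time in WT mice (2.64 and 3.76), and *Slc39a5* farthest to the left between genotypes (-2.48).

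Before treatment edgeR called none of these genes between the genotypes, and DESeq2 called 18 of all tested genes. *Hsf1* itself was not called by edgeR here, so a lack of calls does not show that the genotypes were alike. Of the 8 genes, 0 passed edgeR's test in untreated mice, against 0 of all tested genes, and 0 reached an unadjusted p under 0.05, against 6.29% of all tested genes, and DESeq2 also called 0 of the 8. The largest differences of WT from *Hsf1* null mice were -0.86 for *Mt1* (SE 0.58, edgeR adjusted p = 0.836) and 0.67 for *Slc39a4* (SE 0.33, edgeR adjusted p = 0.794). Both WT mice were above both *Hsf1* null mice for *Slc39a4* and below both for *Slc30a1*. Of the 14371 tested genes, 2646 lay above and 2681 below in this way. The *Mt1* and *Mt2* differences rested on *Hsf1* null mouse 1 and turned to 0.73 and 1.78 without it. *Slc30a10* was higher in both WT mice, and its log2 difference was 1.42 (SE 0.89).

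After treatment 3 of the 8 genes other than *Slc30a10* differed between WT and *Hsf1* null mice by more than 1 on the log2 scale, where 21.1% of all tested genes did, and the same 3 were the ones whose groups did not overlap, where 54.8% of all tested genes did not. These values are a description from which nothing is read, and 3.17% of all tested genes were called in this comparison. *Slc30a10* was lower in WT mice (above). *Slc39a5* was lower in both WT mice, with a log2 difference of -2.48 (SE 0.41). *Mt2* was higher in both, by 2.35 (SE 0.67), and so was *Slc39a14*, by 1.02 (SE 0.26). *Mt1* differed by 0.26 (SE 0.57), *Slc39a4* by 0.60 (SE 0.33), *Slc39a8* by 0.38 (SE 0.45), *Slc30a1* by -0.18 (SE 0.29) and *Mtf1* by 0.13 (SE 0.35), and their values overlapped. The change over time in WT mice minus that in *Hsf1* null mice was -2.53 for *Slc39a5* (SE 0.57), 2.68 for *Mt2* (SE 0.93), 1.12 for *Mt1* (SE 0.82) and 0.84 for *Slc39a14* (SE 0.37). Without mouse 1 of *Hsf1* null day 0 those of *Mt2* and *Mt1* became 0.56 and -0.47.

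Levels between genes can be compared per length of transcript. Per kilobase of 1 annotated transcript per gene, *Mt1* led in each group, with means of 591 CPM per kb in untreated WT mice and 3672 at day 15. *Mt2* came next with 128 and 1746 CPM per kb, and *Slc39a4* after it with 79.4 and 123 CPM per kb. *Slc39a8* was lowest at day 0 in WT mice (3.39 CPM per kb) and *Slc30a10* had the lowest mean in the other three groups, at 2.11 CPM per kb in untreated *Hsf1* null, 0.0149 in treated WT and 1.63 in treated *Hsf1* null mice. In the last of these the mean rests on mouse 2, since mouse 1 was at 3.08 CPM per kb and *Slc39a8* at 1.31 in that mouse.

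Markers of other cell types also had different summed levels in these groups. The summed level of 8 immune cell markers was 257 and 632 CPM in treated WT mice, 190 and 54.4 CPM in untreated WT mice, 125 and 205 CPM in treated *Hsf1* null mice and 70.3 and 63.6 CPM in untreated *Hsf1* null mice. In both genotypes the treated mice were above the untreated ones, and 1 of the 8 markers, *Cd3e* of T cells, passed the test as higher in each (7.74% of all tested genes passed in WT and 11.8% in *Hsf1* null mice). Summed smooth muscle markers were lowest in the treated WT mice, at 3462 and 2025 CPM beside 5013 and 5819 CPM in the treated *Hsf1* null mice, 6899 and 9456 CPM in untreated WT mice and 6756 and 6624 CPM in untreated *Hsf1* null mice. Of the 6 smooth muscle markers, 5 passed the test as lower over time in WT mice (4.27% of all tested genes) and 0 in *Hsf1* null mice (6.48% of all tested genes), and 0 passed as different between the genotypes in this change. Fibroblast markers summed to 2321 and 2344 CPM in treated WT mice and to 438 and 1408 CPM in treated *Hsf1* null mice, after 2479 and 918 CPM in untreated WT and 771 and 1130 CPM in untreated *Hsf1* null mice. Of the 6 fibroblast markers, 1 passed the test as lower over time in *Hsf1* null mice (6.48% of all tested genes) and 0 in WT mice (4.27%). No defining marker of these 3 lists was at 0 in any mouse, and their part in the metal gene values was not tested.

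The wider metal-handling lists comprised 42 further genes, of which 39 were in the count table and 38 were tested. In WT mice 5 of the 38 passed the test over time (4 higher, 1 lower), where 7.74% of all tested genes did, 3.47% higher and 4.27% lower. All 4 that rose are metal-withholding proteins of inflammation, out of 6 on that list. They are the zinc- and manganese-binding calprotectin subunits *S100a8* and *S100a9*, the siderophore-binding lipocalin *Lcn2*, and the iron-binding lactoferrin *Ltf*. *S100a9* went from 1.18 and 0.794 CPM to 54.5 and 297 CPM (log2 fold change 7.33, SE 0.96, edgeR adjusted p = 0.00597) and *Lcn2* from 2.35 and 3.57 CPM to 78.6 and 347 CPM (6.27, SE 0.75, edgeR adjusted p = 0.00591). *S100a8* was at 0.294 and 0.397 CPM and then at 23.1 and 72.0 CPM, 64.0-fold above a floor of 3 counts per library at day 0 (edgeR adjusted p = 0.00772). *Ltf* was at 0.196 and 0.397 CPM and then at 7.22 and 6.02 CPM, 8.92-fold above that floor (edgeR adjusted p = 0.0109). Mouse 2 of WT day 15 was the higher one for *S100a8*, *S100a9* and *Lcn2*, and it also had the higher immune marker sum. Without that mouse, or without mouse 2 of WT day 0, 3 of the 38 passed, and *Ltf* and *Slc40a1* did not. Without mouse 2 of WT day 15 the log2 fold changes of *S100a9* and *Lcn2* were 5.66 and 4.81. *S100a8* was at 23.1 CPM in the treated mouse that remained, and no fitted fold is given for it, given its low counts at day 0. In *Hsf1* null mice *S100a9* was at 0.657 and 1.80 CPM and then at 3.10 and 8.56 CPM (2.62, SE 0.99, edgeR adjusted p = 0.101), which passed without either mouse of WT day 15. *Lcn2* and *Ltf* differed there by 0.96 and 0.33, and did not pass.

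The gene that fell in WT mice was *Slc40a1*, which encodes the iron exporter ferroportin, from 215 and 281 CPM to 78.2 and 32.6 CPM (log2 fold change -2.16, SE 0.42, edgeR adjusted p = 0.0185). Without mouse 1 or mouse 2 of WT day 15 this was -2.92 or -1.66. In *Hsf1* null mice *Slc40a1* was at 207 and 313 CPM and then at 137 and 89.3 CPM, which did not pass the test (-1.20, SE 0.41, edgeR adjusted p = 0.0773). It did pass there with DESeq2, in the fit of only the groups compared and without either mouse of WT day 15, and a difference between the genotypes in this change was not shown (edgeR adjusted p = 0.684). The remaining metallothioneins were low. *Mt3* was at 2.55 and 3.57 CPM in untreated WT mice and at 10.5 and 8.34 CPM at day 15 (log2 fold change 1.68, SE 0.48, edgeR adjusted p = 0.0591), and *Mt4* did not exceed 6.44 CPM in any mouse. DESeq2 called both in WT mice, 7 of the 38 in all.

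In *Hsf1* null mice 3 of the 38 passed the test over time (2 higher, 1 lower), where 11.8% of all tested genes did, so that the share of the list was not above that of all genes. *Slc39a7*, an importer that releases zinc from the endoplasmic reticulum and Golgi, rose from 71.0 and 44.6 CPM to 140 and 147 CPM (log2 fold change 1.30, SE 0.27, edgeR adjusted p = 0.0204). *Slc25a28*, a mitochondrial iron carrier, rose from 35.3 and 19.8 CPM to 74.1 and 72.0 CPM (1.38, SE 0.32, edgeR adjusted p = 0.0269). *Heph*, which encodes the copper-dependent ferroxidase hephaestin, fell from 45.4 and 74.7 CPM to 25.1 and 22.5 CPM (-1.32, SE 0.29, edgeR adjusted p = 0.0245). None of these 3 calls held without mouse 2 of *Hsf1* null day 0 or without either mouse of *Hsf1* null day 15, where 0 of the 38 passed. Without mouse 1 of *Hsf1* null day 0, 6 passed, and without either mouse of WT day 15, 5 did, these 3 among them. In WT mice the log2 fold changes of *Slc39a7*, *Slc25a28* and *Heph* were 0.66, 0.86 and -0.92, and none passed the test.

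**Figure D5:**
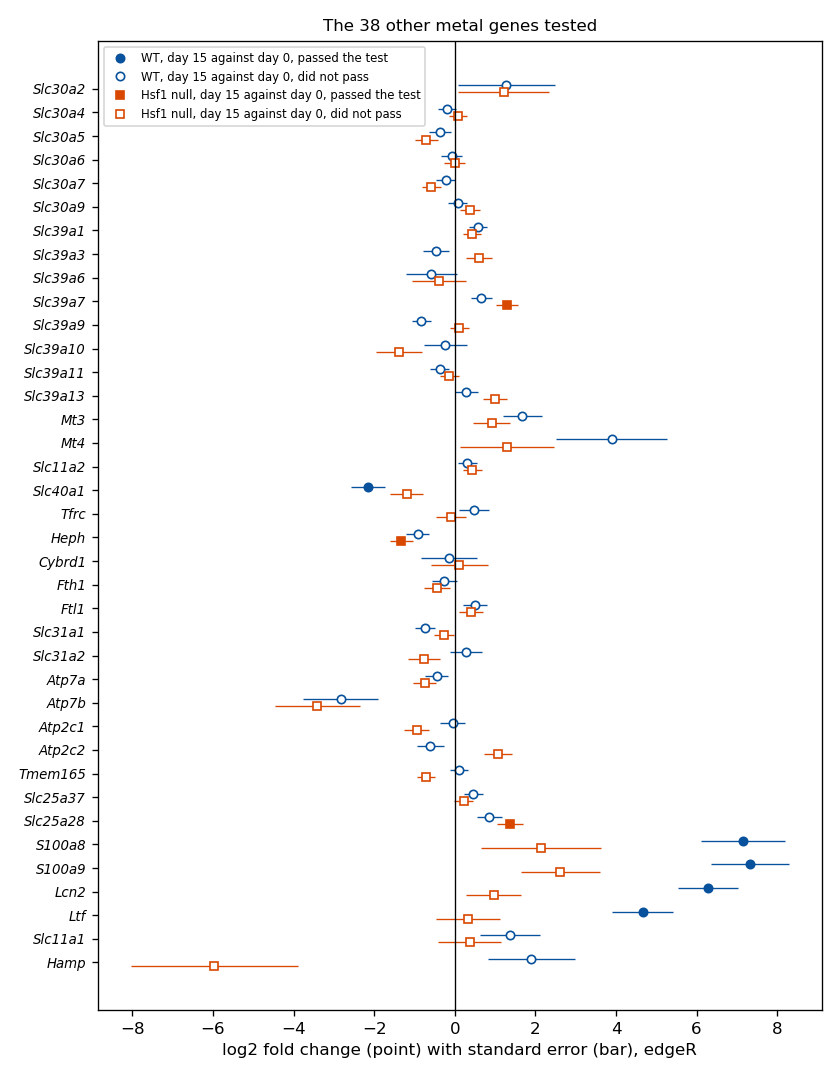
Log2 fold change with its standard error between day 0 and day 15 for the 38 other metal genes tested, in WT mice (circles) and *Hsf1* null mice (squares). Filled symbols passed the test, 5 in WT and 3 in *Hsf1* null mice, and *S100a8*, *S100a9*, *Lcn2* and *Ltf* lie farthest to the right in WT mice.

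Between the genotypes, 0 of the 38 passed edgeR's test at day 0, where *Slc39a13* alone reached an unadjusted p under 0.05 (6.29% of all tested genes) and DESeq2 called 0. At day 15, 5 passed, where 3.17% of all tested genes did. The paper lists *S100a8* and *Lcn2* among the genes higher in treated WT than in treated *Hsf1* null mice, from these same data. The count and the values below are therefore a description. *S100a8*, *S100a9*, *Lcn2* and *Ltf* were higher in WT mice, by 6.20 (SE 0.91, edgeR adjusted p = 0.0161), 4.89 (SE 0.79, edgeR adjusted p = 0.0210), 5.06 (SE 0.67, edgeR adjusted p = 0.0137) and 3.68 (SE 0.65, edgeR adjusted p = 0.0240) on the log2 scale. Without mouse 2 of WT day 15 the differences of *S100a8*, *S100a9* and *Lcn2* were 5.16, 3.21 and 3.63. Without mouse 2 of *Hsf1* null day 15 that of *S100a9* was 5.82, and *S100a8* was then fitted against 0 counts, which gives no fold. *Atp2c2*, which encodes a calcium and manganese pump of the secretory pathway, was lower in WT mice, at 81.7 and 56.8 CPM beside 254 and 230 CPM (log2 difference -1.81, SE 0.35, edgeR adjusted p = 0.0310). These calls were not kept in every fit without 1 mouse, which leaves 1 mouse in a group. They were also lost without a mouse of *Hsf1* null day 0, a group outside this comparison that enters only through the shared fit. Over the fits without 1 mouse each, the difference of *Ltf* ranged from 3.54 to 3.81 and that of *Atp2c2* from -2.09 to -1.57. The change over time differed by genotype for 0 of the 38 in edgeR's test, where 8 had an unadjusted p under 0.05 (8.62% of all tested genes) and 0.00696% of all tested genes were called, and for 1, *Lcn2*, in DESeq2's.

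The genes whose log2 CPM over the 8 mice was most like that of *Slc30a10* were *Fzd5*, a Wnt receptor (Pearson r = 0.998), *Insr*, the insulin receptor (r = 0.993), and *Neu3*, a sialidase of the plasma membrane (r = 0.986). *Fzd5* was at 50.4 to 60.3 CPM in treated WT mice and at 137 and 73.6 CPM in treated *Hsf1* null mice, after 123 to 175 CPM in the untreated mice of both genotypes. For *Mt1* they were *E030030I06Rik* (r = 0.982), *Unc45a*, a myosin chaperone (r = 0.980), and *Tmem54* (r = 0.979). For *Mt2* they were *Wdr18* (r = 0.988), *Clptm1l* (r = 0.982) and *Slc16a3*, the lactate exporter MCT4 (r = 0.981). *Slc16a3* was at 67.2 to 86.0 CPM in treated WT mice and at no more than 20.6 CPM in every other mouse. These are the 3 highest of 14371 genes for each profile, the 8 points share the 4 groups, and the values are a description.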

How the data were processed

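RNA-seq of the distal colon was taken from 8 male mice, grouped by the genotype and day in the labels. The authors aligned reads to mm10 with STAR and deposited raw counts per gene symbol, while the counting program, the annotation and the strand setting are not given in the sources used here. A second table, of the same counts scaled with DESeq2 by the authors, was not used. Total counts per library were 2553348 to 12440257, and intervals and limits cover counting error only.

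Counts were fitted with edgeR 4.0.16 in R 4.3.3 (quasi-likelihood F-test, TMM normalization, 1 model of the 4 groups). Of the genes in the table, 14371 had a mean normalized count over 5 and entered the test, with Benjamini-Hochberg adjustment of their p-values. A gene passed where the adjusted p was under 0.05 and the log2 fold change was over 1 in size. CPM used the TMM library sizes, and log2 CPM a prior count of 2. Folds against 3 or fewer counts in both mice are set against a floor of 3 counts per library. That floor is not an upper limit for a library with counts above 0. Gene positions come from GENCODE M21 and promoter windows from RefSeq.

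The 9 genes, the 5 further metal lists and the marker lists were chosen with earlier results of these data known. Genes named are the 9, *Hsf1*, further list genes that passed in any of the 5 comparisons, and the 3 genes most like *Slc30a10*, *Mt1* and *Mt2*. Other names were chosen after their values were seen, and 1 marker gene is not reported here. The alternatives were DESeq2 1.42.0, DESeq2 size factors, 2 other filters, other thresholds, thinned counts, a replicate block, only the groups compared, and each mouse left out. On simulated counts of 14228 genes, 200 of them changed, edgeR recovered 73 of 100 genes changed 4-fold and 86 of 100 changed 8-fold in WT mice, with 17 false calls.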

Additional observations from a re-analysis of the deposited data

Results flagged for a closer look

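*Slc39a14* was higher in both treated than in both untreated WT mice and lower in both treated *Hsf1* null mice, and its change in WT minus that in *Hsf1* null mice was 0.84 on the log2 scale (SE 0.37). That difference was not tested. Of the 38 further metal genes, 4 had treated mice on opposite sides of the untreated ones in the 2 genotypes, where 3.61% of all tested genes did, and none passed edgeR's test of the difference. *Slc39a3*, a zinc importer, was lower in both treated WT mice and higher in both treated *Hsf1* null mice, with a difference of -1.06 (SE 0.44, edgeR adjusted p = 0.562). *Atp2c2* did the same, with a difference of -1.67 (SE 0.48, edgeR adjusted p = 0.430). *Slc31a2*, a copper transporter, was higher in treated WT and lower in treated *Hsf1* null mice, with a difference of 1.05 (SE 0.56, edgeR adjusted p = 0.637). *Hamp*, which encodes the iron hormone hepcidin, did so too (7.87, SE 2.33, edgeR adjusted p = 0.430), at no more than 3.65 CPM in any mouse and at 0 counts in both treated *Hsf1* null mice, so that the fitted value depends on the prior count.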

How the results depend on the processing

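With 2 mice per group, a fit without 1 mouse leaves 1 mouse in a group and less to judge the spread from. Counts moved in such fits, also where the mouse left out was outside the comparison. Over the fits without 1 mouse each, the count of the 8 tested genes that passed ranged from 0 to 3 in WT mice over time (3 with all mice) and from 0 to 2 in *Hsf1* null mice (0 with all mice), and was 0 at day 0 throughout. The other metal genes that passed ranged from 3 to 6 in WT mice over time (5 with all mice), 0 to 6 in *Hsf1* null mice (3), 0 to 5 between genotypes at day 15 (5) and 0 to 1 for the difference of the changes (0). An adjusted p under 0.005 left 0 of the 8 genes and 0 of the other metal genes in WT mice, and 0 of the other metal genes in *Hsf1* null mice and at day 15. DESeq2 called 1 of the 8 in *Hsf1* null mice, 7 of the other metal genes in WT and 5 in *Hsf1* null mice and 1 for the difference of the changes. A fit of only the groups compared left 0 of the other metal genes at day 15. Among all genes, edgeR called 1112 in WT and 1692 in *Hsf1* null mice over time, 0 at day 0, 455 at day 15 and 1 for the difference of the changes. DESeq2 called 1737, 2203, 18, 1208 and 120, the adjusted p under 0.005 left 12 in WT mice and 0 elsewhere, and the fit of only the groups compared left 6 at day 15.

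Small differences turned sign. *Slc39a8* at day 0 (0.0055) became -0.014 under DESeq2 and under its size factors, -0.0095 with the exchanged block described last, -0.31 with thinned counts and -0.0022 with only the groups compared, and its WT change over time (-0.35) became 0.19 with thinned counts. Without 1 mouse each, the day 0 differences ranged from -0.13 to 0.30 for *Slc39a5*, -0.12 to 0.12 for *Slc39a8*, -0.067 to 0.39 for *Slc39a14*, -1.59 to 0.73 for *Mt1*, -1.12 to 1.78 for *Mt2* and -0.36 to 0.21 for *Mtf1*, and the changes of *Mtf1* over time from -0.12 to 0.39 in WT and -0.52 to 0.30 in *Hsf1* null mice. Without 1 mouse each, the day 15 differences that turned sign ranged from -0.071 to 1.03 for *Slc39a8*, -0.0079 to 0.59 for *Mt1*, -0.22 to 0.59 for *Mtf1* and -0.48 to 0.072 for *Slc30a1*. The cause was not tested.

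Replicate numbers name different animals. Deviations of same-numbered mice correlated with r from -0.29 to 0.15 over genes, not every pair above 0.1, and the replicate block gave 3 of the 8 genes in WT and 0 in *Hsf1* null mice, the counts without it, and 5 and 4 of the other metal genes (*S100a9* being the one added), with 868 and 1505 genes called in all, 343 at day 15 and 2 for the difference of the changes. With the WT mice at day 0 exchanged, a pairing added after seeing the data, the counts were 3 and 1 of the 8. Of the other metal genes, 7 passed in WT mice, 7 in *Hsf1* null mice, 7 at day 15 and 2 for the difference of the changes. Among all genes, 1856 were called in WT mice, 2296 in *Hsf1* null mice, 1314 at day 15 and 54 for the difference.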
